A study of Mus musculus with 12 samples.

Results

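Immunoglobulin kappa variable (Igkv) genes supply the variable domain of the kappa light chain, which most mouse antibodies carry. The Igkv genes described here are all rows of the deposited expression table whose gene name begins with Igkv and a digit, which are 160 of its 36175 genes. They were followed in B cells of the Peyer's patches (PP), the lymphoid follicles of the small intestine in which B cells mature and switch to IgA, and the comparison asks whether these B cells carried other amounts or another mix of Igkv transcripts after a stroke.

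Bulk total-RNA sequencing was performed on PP B cells of 12 wild-type C57BL/6JHsd male mice, aged 10 to 12 weeks, with a separate library for each mouse. The 6 stroke mice had the middle cerebral artery occluded transiently, for 1 h, and the 6 sham controls a sham surgery, and PP were taken 18 h after surgery. B cells were enriched with a magnetic kit that removes other cells, followed by beads against CD45, so the libraries describe an enriched population and not sorted single cell types. In the labels, mice carry a number from 1 to 6 within their group without saying what the numbers stand for, and p-values measure the spread between these mice.

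A kappa light chain gene is assembled in the developing B cell by joining 1 of the Igkv genes to 1 of the Jκ genes (Igkj) next to the constant gene Igkc, and each B cell expresses as a rule a single light chain. The mix of Igkv transcripts in a population therefore reflects which B cell clones it holds and how much antibody RNA each clone makes, and plasma cells make far more of it than resting B cells. In a bulk sample, fewer cells of a type and less RNA per cell cannot be told apart.

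All 160 Igkv genes were found in the GENCODE M21 annotation on GRCm38, on chromosome 6 between 67555497 and 70704177, where each holds a leader exon and a V exon if it is intact. The annotation lists 100 of them as V genes and 60 as V pseudogenes, which carry defects in their coding sequence. They fall into 20 families by sequence likeness, the first number of the gene name, and 75 lie in the same orientation as Igkc and 85 in the opposite one. Igkv3-1 lay nearest to Igkj1, the first Jκ gene, at 18.4 kb, and Igkv2-137 farthest, at 3166 kb.

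Members of a family can be so alike that reads are hard to assign, and the ends of the V segments show this for some pairs. The lines below give the last 60 bases of the annotated transcript (GENCODE M21, GRCm38) of the 7 genes that led the Igkv transcripts of at least 1 mouse and of the 3 genes with an unadjusted p under 0.05 between the groups. Capitals mark the codon of the conserved cysteine before CDR3, the loop that the joining to a Jκ gene completes.
Igkv6-15: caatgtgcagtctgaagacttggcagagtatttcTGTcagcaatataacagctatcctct
Igkv6-23: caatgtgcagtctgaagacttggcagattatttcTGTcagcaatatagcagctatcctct
Igkv10-96: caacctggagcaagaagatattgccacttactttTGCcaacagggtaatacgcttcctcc
Igkv1-117: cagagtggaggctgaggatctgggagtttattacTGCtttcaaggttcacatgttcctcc
Igkv1-110: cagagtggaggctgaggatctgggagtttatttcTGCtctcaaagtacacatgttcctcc
Igkv12-46: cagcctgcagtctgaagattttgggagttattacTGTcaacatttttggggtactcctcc
Igkv4-91: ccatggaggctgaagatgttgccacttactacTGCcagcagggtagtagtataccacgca
Igkv8-21: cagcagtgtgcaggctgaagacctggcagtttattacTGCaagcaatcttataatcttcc
Igkv1-88: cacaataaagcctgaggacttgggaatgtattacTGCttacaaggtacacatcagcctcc
Igkv4-92: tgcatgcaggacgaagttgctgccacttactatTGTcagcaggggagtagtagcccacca
The ends of Igkv6-15 and Igkv6-23 were identical at 58 of 60 bases and those of Igkv1-117 and Igkv1-110 at 56 of 60, whereas Igkv1-110 and Igkv1-88, of the same family, matched at 44 of 60. Over whole transcripts, a tested Igkv gene shared a median of 45.7% of its 31-base words with other Igkv genes, 39 of the 92 tested genes shared over 50%, and 4 shared none. Values of close relatives are therefore uncertain as single genes, less so as sums. Igkv1-88 shared 0.301% of its words, Igkv4-92 0.935% and Igkv8-21 49.1%, the last most often with Igkv8-30.

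Values are given as a signal for each gene under the name of normalized TPM and are comparable between genes per length. Their totals were 559570 in sham control 6 and between 804983 and 1404340 in the other mice, read numbers are unknown, and 30060 genes were above 0 in stroke mouse 6 against at most 23947 in any other mouse. Cd79a, a signalling chain of the B cell receptor, was between 222 and 683 in every mouse. Of the neutrophil markers, S100a8 was at 0.524 or below in all 12 mice and Cxcr2 between 2.35 and 5.02. The T cell genes Cd3e and Cd3g were between 2.51 and 27.7 and between 2.72 and 46.3, so some T cell RNA was present. Epcam, a marker of intestinal epithelium, was between 1.53 and 177, so epithelial RNA was present in amounts that differed between mice.

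In total, Igkv transcripts were abundant and varied widely within both groups. The sum over all Igkv genes was 16726, 15079, 11650, 10613, 8367 and 2356 in sham controls 1 to 6. It was 12566, 10326, 9850, 6610, 3202 and 7617 in stroke mice 1 to 6. Sham control 6 and stroke mouse 5 were the lowest of all mice, sham controls 1 and 2 the highest, and the groups overlapped. Sham controls had a mean of 10799 ± 5126 and stroke mice of 8362 ± 3286 (SD, n = 6 each), a ratio of 0.774, and the difference between the means was smaller than either SD. On the log2 scale the mean sum differed by -0.26 (stroke minus sham) with all mice, by -0.66 without sham control 6 and by -0.01 without stroke mouse 5. With each mouse rescaled to the same total signal it differed by -0.14. As a share of all signal, Igkv genes took from 0.421% in sham control 6 to 1.28% in sham control 3, and from 0.395% in stroke mouse 5 to 1.23% in stroke mouse 1.

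The constant gene Igkc, which every kappa transcript carries, followed the Igkv sum closely. Its values were 14467, 12660, 9768, 9418, 7009 and 1801 in sham controls 1 to 6. They were 10228, 8355, 7973, 5385, 2530 and 5131 in stroke mice 1 to 6. The 12 mice held the same rank for the Igkv sum and Igkc in 10 cases, as a description of libraries that share their preparation. Igkc did not pass the test between the groups (log2 fold change, stroke minus sham, -0.36, SE 0.47, adjusted p = 0.881, limma with Benjamini-Hochberg adjustment). Its log2 fold change was -0.78 without sham control 6, where it was lower at an unadjusted p under 0.05 but not after adjustment, and -0.11 without stroke mouse 5. The Igkv sum divided by Igkc was between 1.13 and 1.19 in sham controls 1 to 5 and 1.31 in sham control 6. In stroke mice it was between 1.23 and 1.48, so the groups overlapped only through sham control 6. This was seen after the values were known and was not tested. The ratio spanned 1.32-fold over the mice while the Igkv sum spanned 7.10-fold.

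Of the genes of antibody-secreting cells, Jchain was high or low in much the same libraries as the Igkv sum, but not all plasma cell markers were. Jchain, which links IgA and IgM into polymers, was 969, 834, 539, 612, 472 and 83.6 in sham controls 1 to 6. In stroke mice 1 to 6 it was 670, 554, 518, 323, 179 and 312. Jchain did not pass the test with all mice (log2 fold change -0.27, adjusted p = 0.922, limma with Benjamini-Hochberg adjustment), and had -0.76 and an unadjusted p under 0.05 without sham control 6. The mice held the same rank for Jchain and the Igkv sum in 7 of 12 cases, with sham control 6 last in both, and Jchain spanned 11.6-fold and Igha, the IgA heavy chain constant gene, 9.77-fold over the 12 mice. The summed signal of 12 plasma cell markers was between 422 and 1677 in sham controls and between 520 and 1268 in stroke mice. Of its 11 tested members, 0 passed at an unadjusted p under 0.05 in either direction (limma). Among these markers, Sdc1 and Mzb1 were highest in sham control 1, at 12.0 and 255. Both were lowest of all mice in sham control 6, at 2.79 and 82.2. Xbp1 was highest in sham control 1, at 129, and lowest in stroke mouse 5, at 37.5. In contrast, Derl3 was 29.9 in sham control 6, the highest of the sham controls, and Slamf7 was between 36.1 and 55.8 in all mice. The summed signal of 10 epithelial markers was 38.8 in sham control 6, the lowest of all mice, and up to 1593 in the other sham controls, and between 62.8 and 748 in stroke mice. What part plasma cell content or epithelial RNA had in the Igkv values was not tested.

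**Figure D1:**
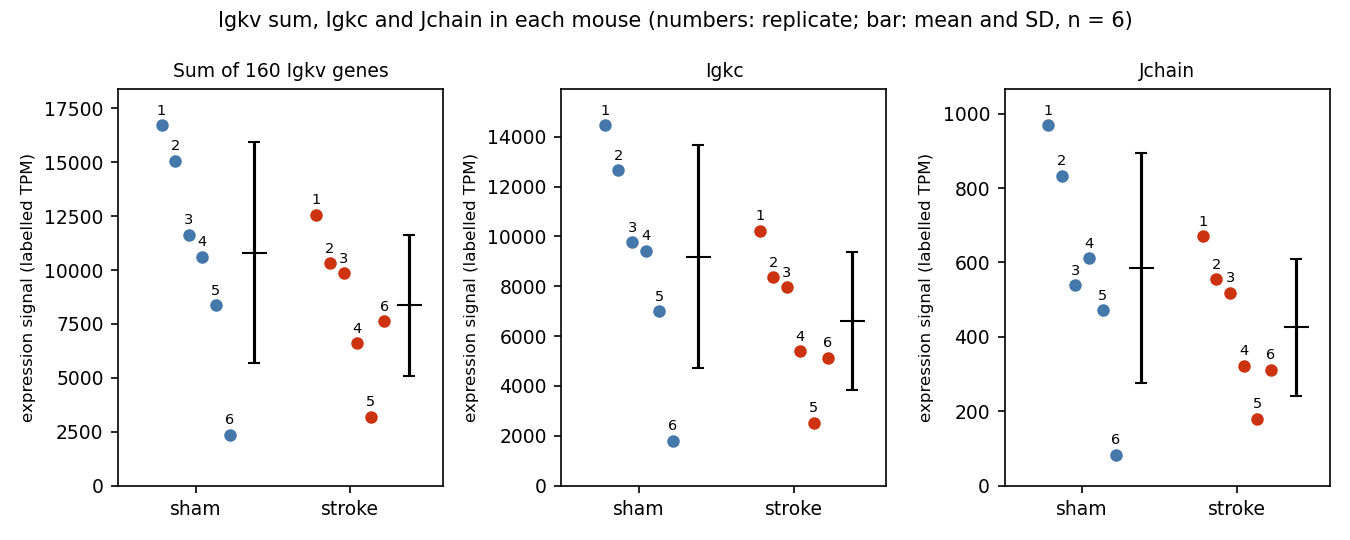
Sum of all 160 Igkv genes, Igkc and Jchain in each mouse (linear y axis from 0, deposited expression signal; points are mice with their replicate number, bars the mean and SD of 6 mice). The Igkv sum, Igkc and Jchain were lowest in sham control 6, at 2356, 1801 and 83.6, and for all 3 measures the groups overlapped.

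The sum of the Igkj genes spanned 3.13-fold and was highest in sham control 6, where Igkj5 alone reached 3532. The summed heavy chain variable genes (Ighv) spanned 4.79-fold and the lambda variable genes (Iglv) 3.62-fold. The Igkv sum was between 0.927 and 1.49 times the Ighv sum in sham controls and between 0.989 and 1.13 times in stroke mice, and the groups overlapped. Relative to the Iglv sum it was 3.34 in sham control 6 and between 9.17 and 17.7 in the other mice.

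Of the 160 Igkv genes, 92 reached a value of 1 in all 12 mice and were tested, 46 reached 1 in some mice only, and 22 stayed below 1 in every mouse, of which 4 were listed at 0 in all. The tested genes were 87 V genes and 5 pseudogenes. The 68 untested genes, 13 of them V genes, together held a mean of 1.13% of the Igkv sum. Between 118 and 140 Igkv genes were above 0 in a mouse, the highest number in stroke mouse 6. Pseudogenes summed to between 36.6 and 130 in a mouse and took 4.91% of the Igkv sum in sham control 6 against 0.488% to 1.52% in the other mice. The pseudogene sum spanned 3.55-fold over the mice, less than the 7.41-fold of the intact genes.

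The genes that led the mix recurred between mice but were not the same in all of them. The 10 genes with the highest means were Igkv6-15, Igkv10-96, Igkv1-117, Igkv6-23, Igkv1-110, Igkv14-111, Igkv12-46, Igkv5-43, Igkv1-135 and Igkv4-91, all annotated as V genes and not as pseudogenes. The 10 leading genes of a mouse held between 38.8% and 46.5% of its Igkv sum, and its single leading gene between 5.30% and 7.92%. Igkv6-23 led in sham controls 3, 4 and 5, Igkv6-15 in sham control 1, Igkv1-110 in sham control 2 and Igkv10-96 in sham control 6. In stroke mice, Igkv6-15 led in mice 2 and 3, Igkv1-117 in mice 5 and 6, Igkv4-91 in mouse 1 and Igkv12-46 in mouse 4. The effective number of Igkv genes, the number of equally used genes that would give the same Shannon diversity, was between 49.3 and 52.0 in sham controls 1 to 5 and 63.8 in sham control 6. In stroke mice it was between 49.7 and 52.9, inside the range of the sham controls, whose upper end is sham control 6. Stroke mice 3 to 6, at 52.4 to 52.9, lay above sham controls 1 to 5. The mean effective number differed by -1.21 (stroke minus sham) with all mice and by 0.98 without sham control 6.

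Igkv6-15, which had the highest mean, was 992, 965, 585, 695, 410 and 111 in sham controls 1 to 6. It was 541, 703, 706, 344, 136 and 405 in stroke mice 1 to 6. As a share of the Igkv sum it lay between 4.70% and 6.55% in sham controls and between 4.25% and 7.17% in stroke mice, a much narrower range than its level. Igkv6-23, its relative with a nearly identical end, was 931, 814, 699, 841, 579 and 73.1 in sham controls. It was 487, 321, 553, 297, 147 and 296 in stroke mice. All stroke mice lay below sham controls 1 to 5 and above sham control 6, and the gene did not pass the test (log2 fold change -0.68, SE 0.55, adjusted p = 0.832, limma with Benjamini-Hochberg adjustment). Its share was between 3.10% and 7.92% in sham controls and between 3.11% and 5.61% in stroke mice.

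Igkv10-96 had the steadiest share of all tested genes, by its SD within groups. Its level ran from 125 to 963 in sham controls, with a median of 558, and from 164 to 883 in stroke mice, with a median of 426. Its share stayed between 4.93% and 6.39% in sham controls and between 4.67% and 7.03% in stroke mice. The group difference of its level was -0.31 on the log2 scale (SE 0.49, adjusted p = 0.905, limma with Benjamini-Hochberg adjustment). Igkv1-117 was nearly as steady, with shares from 3.85% to 5.75% in sham controls and from 4.55% to 6.49% in stroke mice.

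Igkv4-91 behaved otherwise and stood out in the mice numbered 1. It was 955 in stroke mouse 1 and between 78.0 and 277 in the other stroke mice. In sham control 1 it was 525, and between 47.1 and 188 in the other sham controls. Its share of 7.60% in stroke mouse 1 compares with 3.14% in sham control 1 and 1.13% to 2.68% in the other mice. The group means of 187 ± 172 and 279 ± 339 (SD, n = 6 each) each hold 1 mouse far above the rest. The difference did not pass the test (log2 fold change 0.36, SE 0.62, adjusted p = 0.913, limma with Benjamini-Hochberg adjustment).

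The remaining leading genes, Igkv1-117, Igkv1-110, Igkv14-111, Igkv12-46, Igkv5-43 and Igkv1-135, had log2 fold changes between -0.51 and -0.01, and each overlapped between the groups. Igkv5-43 had the largest of these differences, with values from 48.0 to 440 with a median of 311 in sham controls and from 50.7 to 486 with a median of 162 in stroke mice. Igkv14-111 and Igkv12-46 had similar medians in sham controls and stroke mice, 392 and 354 for the first and 368 and 358 for the second.

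**Figure D2:**
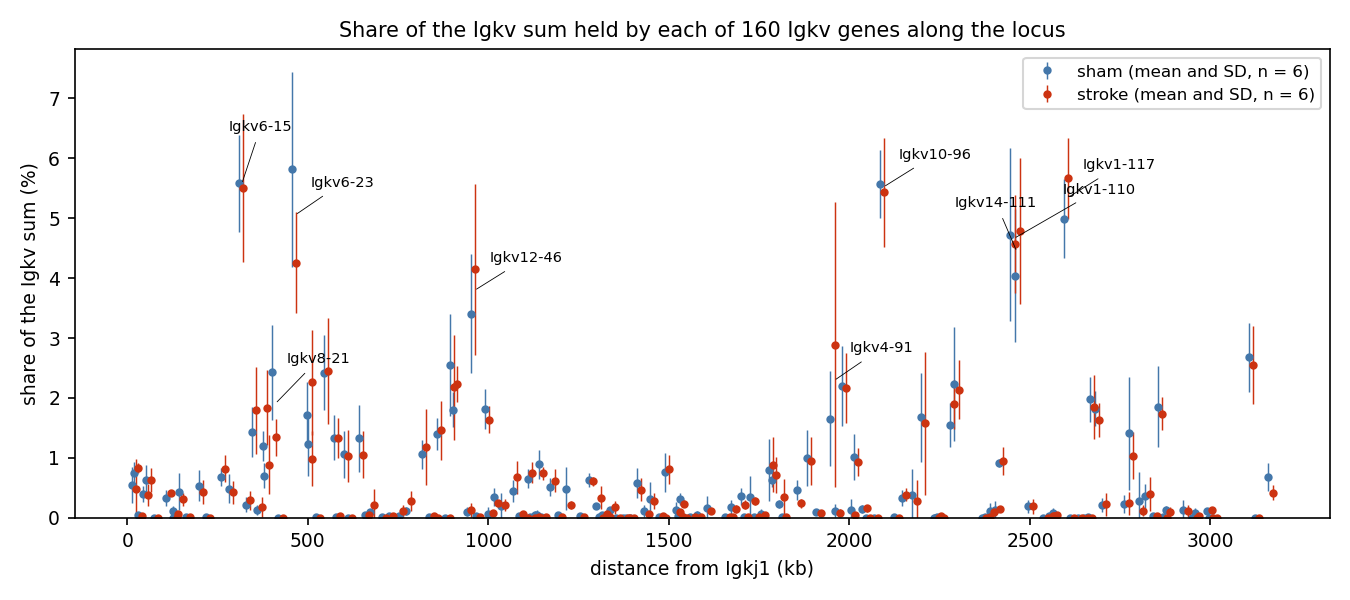
Mean share of the Igkv sum (percent, y axis) of each of the 160 Igkv genes against its distance from Igkj1 (kb, x axis), with points and bars for the mean and SD of 6 mice, the 2 groups drawn slightly apart. High shares were found both near to Igkj1, as for Igkv6-15, and far from it, as for Igkv1-117, and Igkv8-21 had 2.43% in sham controls and 1.34% in stroke mice.

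The groups overlapped in where along the locus the transcripts came from. The 80 Igkv genes farther than 1483 kb from Igkj1 held between 47.3% and 54.9% of the Igkv sum in every mouse. Genes in the orientation of Igkc, which are joined by deletion rather than inversion, held between 37.0% and 44.9%. Igkv3-1, the nearest gene, was between 10.5 and 92.7 in sham controls with a median of 52.2, and between 2.01 and 143 in stroke mice with a median of 29.9. The highest and the lowest value of Igkv3-1 both fell in stroke mice, 143 in mouse 3 and 2.01 in mouse 5. Igkv2-137, the farthest gene, was between 13.3 and 126 in sham controls and between 8.0 and 69.8 in stroke mice (log2 fold change -0.95, SE 0.59, adjusted p = 0.793, limma with Benjamini-Hochberg adjustment).

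By family, Igkv6 held the largest part of the Igkv sum, with 17.3% ± 1.91 in sham controls and 15.8% ± 1.69 in stroke mice (SD, n = 6 each). Igkv1 followed with 13.8% ± 1.94 and 13.9% ± 1.0. Igkv8 took 10.6% ± 1.35 and 11% ± 1.47, and Igkv4, the family with the most genes at 33, took 10.1% ± 2.07 and 11% ± 2.01. Igkv12 was 8.15% ± 0.956 in sham controls and 9.60% ± 1.90 in stroke mice. None of the 20 families had shares that kept the groups apart. Sham control 6 had the highest Igkv8 share of the sham controls, at 13.3%, and also the highest Igkv4 share, at 14.1%.

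The rank order of Igkv genes was as alike between the groups as within them. Over the 92 tested genes, Spearman's rho between a pair of mice was 0.813 to 0.926 for the 15 pairs of sham controls, with a median of 0.885. It was 0.817 to 0.928 for the 15 pairs of stroke mice, with a median of 0.904, and 0.791 to 0.924 for the 36 pairs across groups, with a median of 0.891. These are correlations across genes whose reads partly overlap, in libraries of the same locus, and genes are not independent replicates.

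Much of the spread of single Igkv genes followed the Igkv sum of the mouse, though not for every gene. The median within-group SD of the 92 genes was 0.973 on the log2 scale as deposited and 0.571 after each mouse was rescaled to the same Igkv sum. Rescaling to the same Igkc gave 0.585 and to the same total signal 0.772. The leading genes make up much of the Igkv sum, so part of their lower spread follows by construction. For some genes of lower expression, rescaling to the Igkv sum raised the SD. It rose from 0.495 to 0.967 for Igkv4-92 and from 0.370 to 0.781 for Igkv4-81, the latter chosen after its values were seen. After rescaling to the Igkv sum, the SD was lowest for Igkv10-96, at 0.191, and Igkv1-117, at 0.192, and highest for Igkv1-99, at 1.39. Igkv1-99 was 119 in stroke mouse 1 and 104 in sham control 5 but 3.93 in stroke mouse 5. Igkv11-125 was 146 in sham control 3 and between 2.70 and 14.3 in the other mice, 20.8 times its median over mice. Both of these were chosen after their values were seen.

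**Figure D3:**
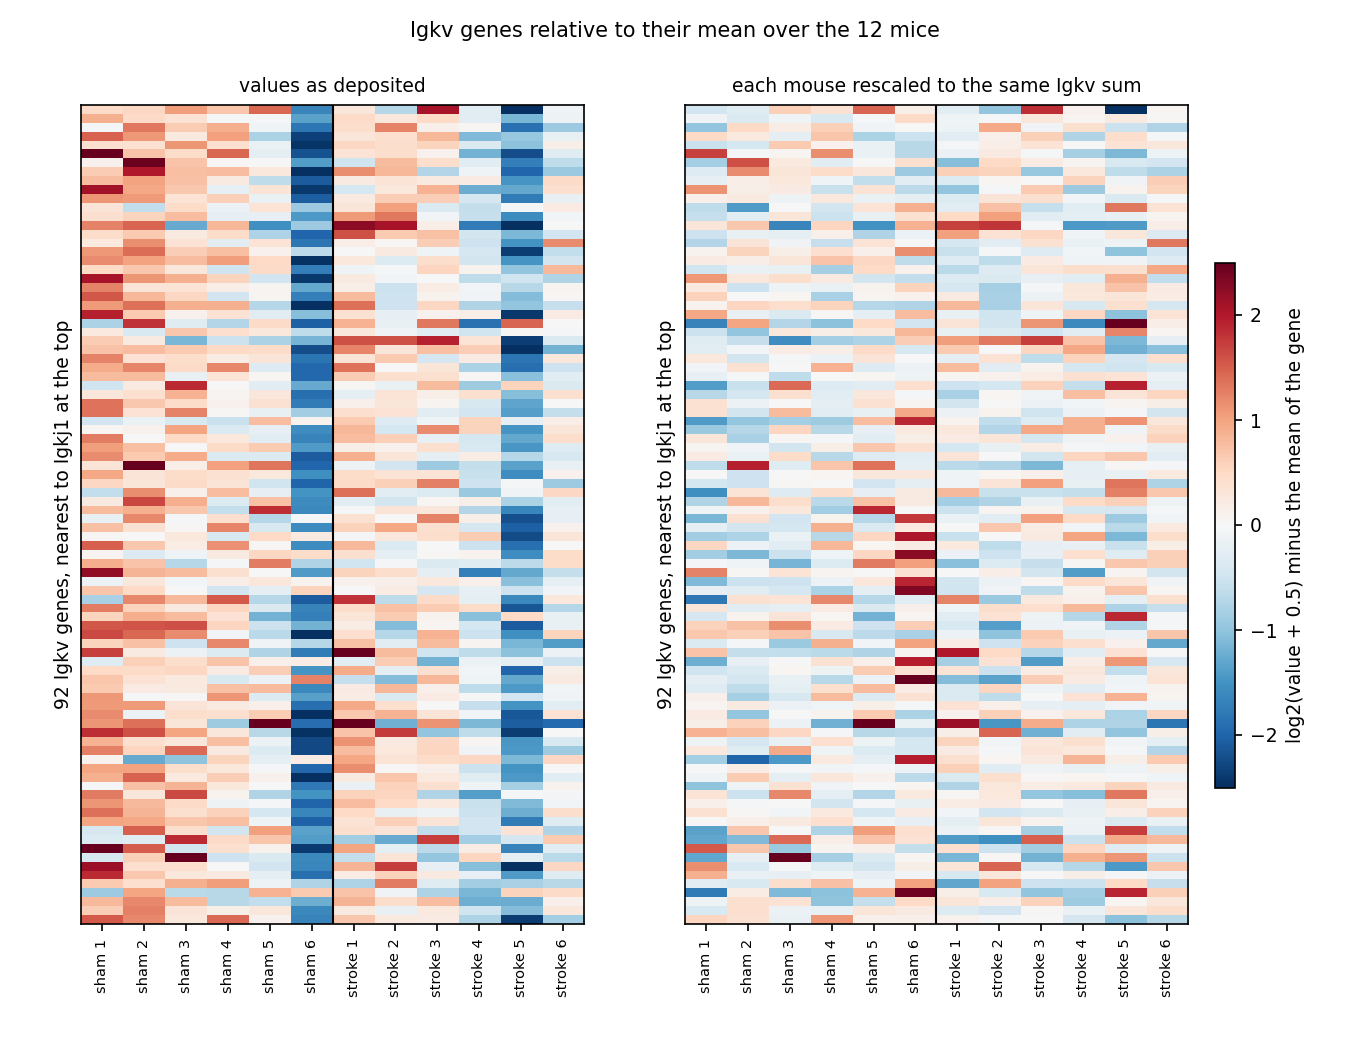
Each of the 92 tested Igkv genes (rows, nearest to Igkj1 at the top) in each mouse (columns), as log2(value + 0.5) minus the mean of the gene over 12 mice, for deposited values on the left and after rescaling each mouse to the same Igkv sum on the right. Sham control 6 held the lowest of the 12 values for 56 genes and stroke mouse 5 for 29, visible as blue columns on the left that are largely gone on the right.

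Between stroke mice and sham controls, most Igkv genes had lower values in stroke mice, but few stood out from the spread between mice. Of the 92 tested genes, 3 were lower in stroke mice at an unadjusted p under 0.05 (limma), or 3.26%, beside 1.69% of all 12590 genes tested. In the other direction it was 0 of 92, beside 4.42% of all genes. After Benjamini-Hochberg adjustment 0 Igkv genes passed, with a smallest adjusted p = 0.783 (limma). The log2 fold change was negative for 71 of the 92 genes, or 77.2%, against 48.6% of all genes, with a median of -0.28 against 0.01, and it ranged from -1.21 for Igkv4-58 to 0.92 for Igkv12-38. The Igkv genes of a library were high or low together, so these counts do not stand for independent genes. The groups overlapped for all 92 genes, and 0.437% of all genes had groups that did not.

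Sham control 6 bore on this count. It had the lowest Igkv sum, and without it the sham mean rises by construction. Without sham control 6, 20 of the 92 Igkv genes were lower at an unadjusted p under 0.05, or 21.7%, beside 9.2% of all genes in the same fit, and 0 passed the adjustment (smallest adjusted p = 0.215, limma with Benjamini-Hochberg adjustment). The share of negative values was then 91.3% and the median log2 fold change -0.62. Of the 3 genes called with all mice, 2 were also called without sham control 6, and 3 of the 10 leading genes were called. Among these, Igkv6-23 had a log2 fold change of -1.24, Igkv1-110 of -0.80 and Igkv1-135 of -0.70. Without stroke mouse 5, in contrast, 1 gene was lower and 2 were higher, Igkv12-38 and Igkv1-108, and 56.5% were negative. Of all 12590 genes, 156 were lower and 436 higher in that fit. The count of lower Igkv genes was 0 without sham control 2, beside 144 of all 12590 genes. It was 1 without sham control 1, sham control 3 or stroke mouse 4, beside 162, 188 and 170 of all genes.

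**Figure D4:**
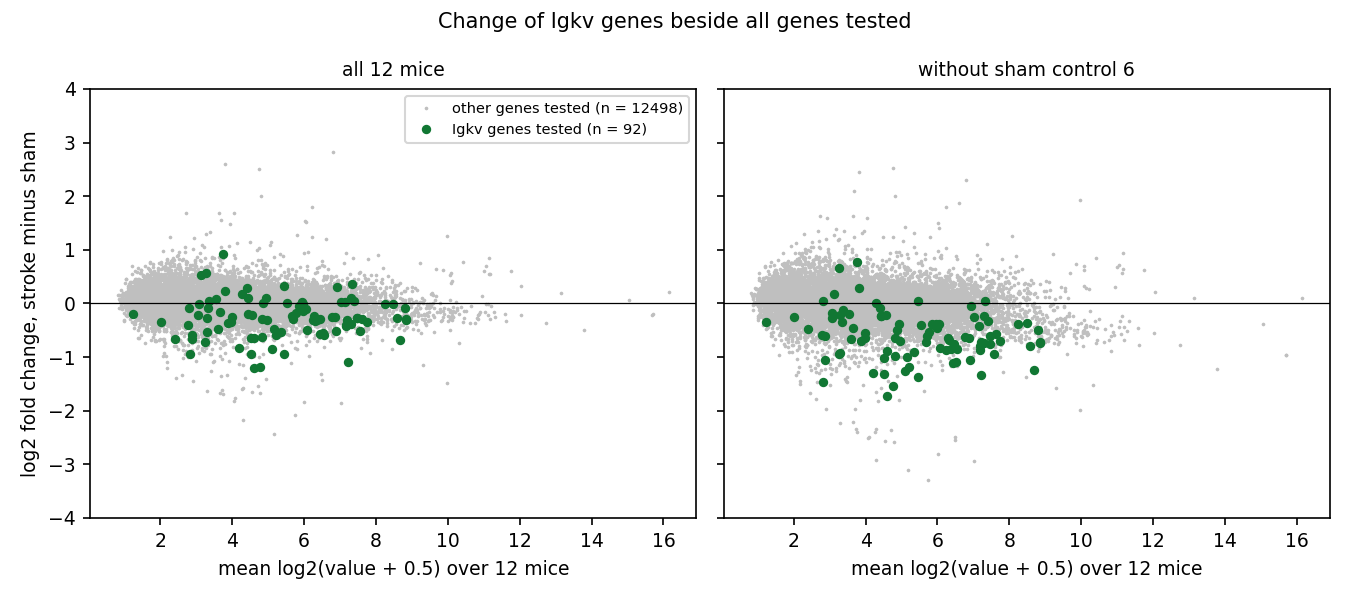
Log2 fold change (stroke minus sham, y axis) against the mean log2(value + 0.5) over 12 mice (x axis) for the 12590 genes tested, Igkv genes in green and other genes in grey, with all 12 mice on the left and without sham control 6 on the right. The median of the Igkv genes was -0.28 on the left and -0.62 on the right.

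Igkv8-21 had the smallest p of the Igkv genes. It was 313, 388, 225, 247, 160 and 93.1 in sham controls 1 to 6. It was 148, 174, 137, 111, 27.9 and 96.3 in stroke mice 1 to 6. Sham controls 5 and 6 lay within the range of the stroke mice and the other 4 sham controls above it. The mean was 238 ± 105 in sham controls and 116 ± 51.0 in stroke mice (SD, n = 6 each), with a log2 fold change of -1.09 (SE 0.43, unadjusted p = 0.0249, adjusted p = 0.783, limma with Benjamini-Hochberg adjustment). With an exact two-sided permutation test, in which 924 assignments of mice to groups are possible, the result was p = 0.041. The unadjusted limma call was lost without sham control 1 and without sham control 2, at log2 fold changes of -0.98 and -0.92.

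As a share of the Igkv sum, Igkv8-21 was 1.87%, 2.57%, 1.93%, 2.33%, 1.91% and 3.95% in sham controls 1 to 6. Its share was 1.18%, 1.68%, 1.39%, 1.67%, 0.872% and 1.26% in stroke mice 1 to 6. Every stroke mouse thus lay below every sham control, and Igkv8-21 was the 1 of the 92 tested Igkv genes for which this held. Divided by the Igkv sum in the same way, 0.0159% of all genes kept the groups apart. However, the division lowers the spread of most Igkv genes and adds that of the Igkv sum to other genes. This share is therefore no measure of how unusual 1 such Igkv gene is. Rescaled to the Igkv sum, its log2 fold change was -0.83 (unadjusted p = 0.0573, adjusted p = 0.994, limma with Benjamini-Hochberg adjustment). In this fit limma borrows spread from all genes tested, to which the division adds that of the Igkv sum. The p is therefore no measure of the spread of Igkv8-21 alone, whose within-group SD was 0.385 (log2). Of the 31-base words of Igkv8-21, 49.1% also occur in other Igkv genes and 29.3% in Igkv8-30 alone, so its values are uncertain where reads could be split between them.

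Igkv1-88, with nearly no shared words, was 79.1, 80.2, 83.0, 38.9, 18.3 and 11.5 in sham controls 1 to 6. It was 30.5, 12.3, 28.0, 19.7, 5.95 and 23.5 in stroke mice 1 to 6. Sham controls 1 to 4 lay above all stroke mice and sham controls 5 and 6 among them. Its log2 fold change was -1.18 (SE 0.53, unadjusted p = 0.0446, adjusted p = 0.791, limma with Benjamini-Hochberg adjustment), and the exact two-sided permutation test gave p = 0.080. The limma call was lost without any 1 of sham controls 1 to 4 or stroke mice 2, 4 and 5, with log2 fold changes between -1.21 and -0.88.

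Igkv4-92, a gene of low expression, was 5.42, 10.6, 9.47, 11.6, 7.58 and 7.93 in sham controls 1 to 6. It was 5.55, 11, 2.74, 6.12, 5.77 and 4.59 in stroke mice 1 to 6. Stroke mice 3 and 6 lay below all sham controls, sham control 4 lay above all stroke mice, and the other mice overlapped. Its log2 fold change was -0.58 (SE 0.26, unadjusted p = 0.0428, adjusted p = 0.791, limma with Benjamini-Hochberg adjustment), with an exact two-sided permutation p = 0.069. The limma call held only without sham control 1, sham control 5 or stroke mouse 2, among the fits that left out 1 mouse.

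**Figure D5:**
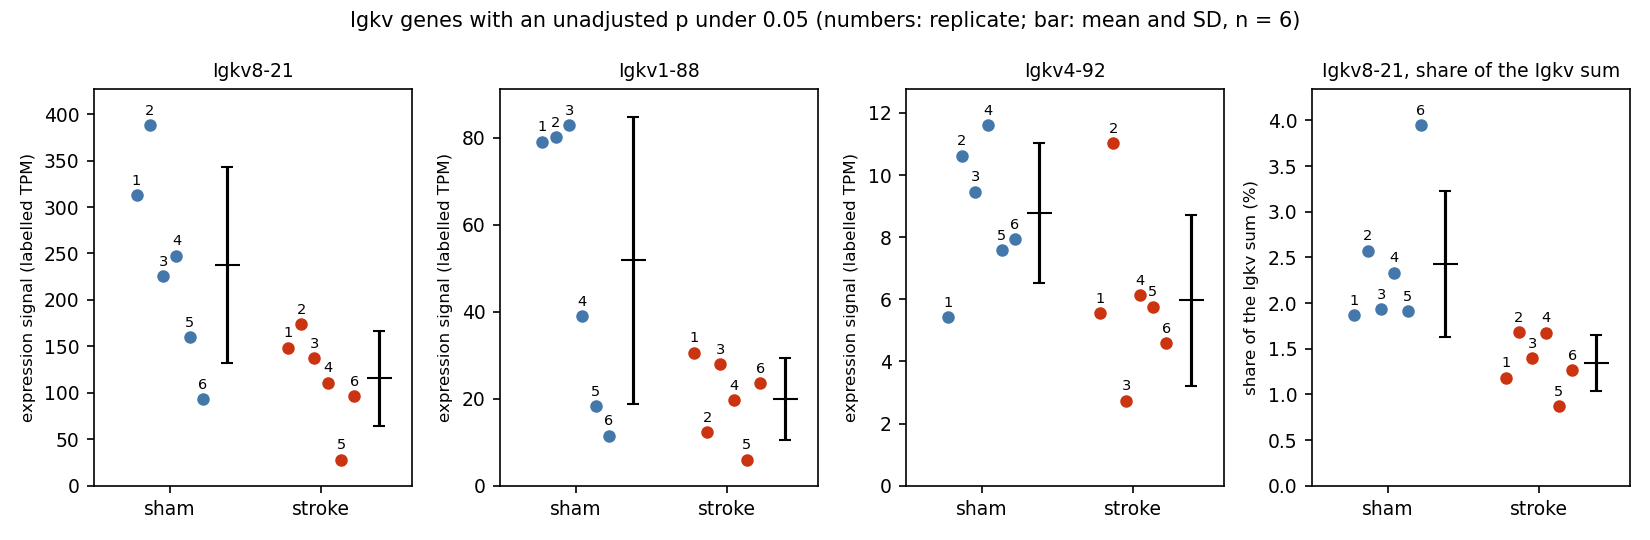
Igkv8-21, Igkv1-88 and Igkv4-92 in each mouse (deposited expression signal) and Igkv8-21 as a share of the Igkv sum (percent), on linear y axes from 0, with the replicate number at each point and bars for the mean and SD of 6 mice. The groups overlap in the first 3 panels, and in the last the stroke mice end at 1.68% and the sham controls start at 1.87%.

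The genes at both ends of the range of fold changes were chosen after their values were seen. Igkv4-58 was 29.7, 165, 26.5, 48.5, 60.6 and 5.63 in sham controls 1 to 6, against 9.11 to 21.8 in stroke mice. Sham controls 1 to 5 lay above every stroke mouse and sham control 6 below them, and the gene did not pass the test with all mice (log2 fold change -1.21, SE 0.58, adjusted p = 0.791, limma with Benjamini-Hochberg adjustment). Without sham control 6 its log2 fold change was -1.73 (unadjusted p = 0.00103, adjusted p = 0.215, limma with Benjamini-Hochberg adjustment). Igkv12-38 was between 5.57 and 20.5 in sham controls, and in stroke mice 40.2, 40.0, 50.8, 16.7, 2.14 and 10.1 in mice 1 to 6. Stroke mice 1 to 3 lay above all sham controls and stroke mouse 5 below them, and the gene did not pass the test (log2 fold change 0.92, SE 0.64, adjusted p = 0.815, limma with Benjamini-Hochberg adjustment).

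Other genes of light chain formation gave few calls. Of Igkc and the 5 Igkj genes, all tested, 0 passed at an unadjusted p under 0.05 (limma), and of 6 lambda genes and 7 tested heavy chain constant genes also 0. The recombinase genes Rag1 and Rag2 and the terminal transferase gene Dntt, which act in developing B cells, did not reach the filter. Rag1 was at most 0.210 in any mouse. Rag2 missed the filter through sham control 2 alone, at 0.948, and was between 1.12 and 2.10 in the other mice. Vpreb2 of the surrogate light chain was listed at 0 in every mouse. Of 12 transcription factors that act on the kappa locus or in B cells, 1 was higher at an unadjusted p under 0.05, beside 4.42% of all genes. This was Tcf3, which encodes the E proteins that bind the kappa enhancers (log2 fold change 0.41, SE 0.11, unadjusted p = 0.00294, adjusted p = 0.716, limma with Benjamini-Hochberg adjustment). Of 8 B cell markers, 2 were lower at an unadjusted p under 0.05 (limma), beside 1.69% of all genes. Cr2, a complement receptor gene, had a log2 fold change of -0.83 (adjusted p = 0.748, limma with Benjamini-Hochberg adjustment). Fcer2a, which encodes CD23, had -0.72 (adjusted p = 0.791, limma with Benjamini-Hochberg adjustment). Both receptors mark mature resting B cells, and what bearing they have on the Igkv values was not tested.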

How the data were processed

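Total RNA of Peyer's patch B cells was sequenced in 12 mice, 6 sham controls and 6 stroke mice, grouped by the treatment label. The deposited table gives a signal for each gene that the authors named normalized TPM. Per the labels and methods, the authors used FastQC 0.11.9 for read quality, Trimmomatic 0.39 for trimming, kallisto 0.48.0 for quantification against Ensembl release 102 (GRCm38) and sleuth 0.30.0 in R 4.1.2 for tests. kallisto divides reads that fit several transcripts by a likelihood model, so values of near-identical Igkv genes depend on each other. The column totals differ, so the values are not plain TPM as the test design had assumed, and they were treated as a signal and tested as TPM would be. No read counts are given, so the depth is unknown and no counting interval was computed.

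Genes that reached 1 in all 12 mice were tested as log2(value + 0.5) with limma 3.58.1 (R 4.3.3), without a block, with Benjamini-Hochberg adjustment over all of them. Fold changes on this scale understate those of low genes. Single genes were also compared by exact two-sided permutation tests (scipy 1.17.1), for which 0.0022 is the smallest p that 6 mice against 6 allow. Shares are percent of the summed Igkv values of a mouse. Positions, biotypes and transcript sequences come from GENCODE M21 on GRCm38. The test was checked on simulated data in which genes varied independently, so the check does not cover genes that are high or low together.

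The Igkv genes named are the 10 with the highest means, the leading gene of each mouse, those with an unadjusted p under 0.05, those whose groups do not overlap, and the nearest and farthest from the Jκ genes. Genes named otherwise are marked, and some genes of the lists are not reported here. The members and gene lists were chosen with earlier results of these data known. Alternatives were other pseudocounts, filters and scalings, a replicate block and leaving out each mouse. No mouse was left out of the values reported unless stated.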

Additional observations from a re-analysis of the deposited data

Results flagged for a closer look

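Of 58 groups of 6 values examined, 9 held a mouse whose gap to its nearest neighbour, divided by the range of the group, was above Dixon's critical value at the 95% level. Chance flags about 1 in 20 such groups, and these groups share mice.

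Igkv4-91 was flagged in both groups, for 525 in sham control 1, where the next value was 188, and for 955 in stroke mouse 1, where the next was 277. Igkv3-1 was flagged for 143 in stroke mouse 3, where the next value was 41.8.

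Sham control 6 was flagged for 5 measures of the mix of Igkv transcripts. Its effective number of Igkv genes was 63.8 (next 52.0), its pseudogene share of the Igkv sum 4.91% (next 0.949%), its share of family Igkv8 13.3% (next 10.3%), its share of family Igkv4 14.1% (next 10.1%) and its Igkv sum over Igkc 1.31 (next 1.19). The pseudogene sum itself was 116 in this mouse, inside the range of the other sham controls. The remaining flag was the Igkv sum over Igkc of stroke mouse 6, at 1.48 (next 1.27), the mouse in which 30060 genes were above 0. The cause of these values was not tested.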

How the results depend on the processing

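With all mice, 3 Igkv genes were lower and 0 higher in stroke mice at an unadjusted p under 0.05 (limma). Of all 12590 genes tested, 213 were lower and 557 higher. A negative log2 fold change was found for 77.2% of the tested Igkv genes. Leaving out 1 mouse at a time gave 0 to 20 Igkv genes lower, 0 to 2 higher and 56.5% to 91.3% negative. Over all 12590 genes, the same fits gave 144 to 1158 lower and 396 to 937 higher. The highest count of lower genes came without sham control 6. Leaving out sham control 6 and stroke mouse 6 together, chosen after seeing the data, gave 19 Igkv genes lower and 91.3% negative. In that fit 806 of 12590 genes were lower. Rescaling to the same Igkv sum gave 1 lower, 1 higher and 55.4% negative. Of all genes, 20 were then lower and 43 higher, with the median of all genes moved to 0.26 (log2). Filtering on a mean of at least 1 gave 1 higher, beside 670 of all 15624 genes tested. No filter gave 1 higher, beside 1418 of 31890, and 66.7% negative. Rescaling to the same total signal, or to that of non-immunoglobulin genes, gave 67.4% negative each. The cause of these shifts was not tested. In all 22 alternatives, 0 Igkv genes passed the adjustment.

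With a replicate block 8 Igkv genes were lower, beside 404 of all 12590 genes, with a smallest Igkv adjusted p = 0.392 (limma). The deviations of same-numbered mice had correlations of 0.0134 to 0.494, over 0.1 for 4 of 6 pairs. Their mean was 0.218, against -0.0414 for other pairs. Whether the numbers pair the mice is unresolved, and the main values were computed without pairing.

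Igkv8-21 lost its unadjusted call in 3 of 22 alternatives, Igkv1-88 in 9 and Igkv4-92 in 15, and each kept a negative log2 fold change in all 22. Igkc and Jchain gained an unadjusted call without sham control 6, at -0.78 and -0.76. Igha, at -0.25, turned to 0.0109 when rescaled to the Igkv sum and to 0.0127 without stroke mouse 5 (-0.74 to 0.0127 over single mice left out). Read depth is unknown, which limits the statements on low genes.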
